A study of Mus musculus with 24 samples.

Results

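The transcripts described here are 10955 rows of the deposited tables that GENCODE M21 annotates as retained intron, that belong to protein-coding genes, and that had 5 or more estimated reads in at least 12 of the 24 libraries. They were chosen from 149444 transcript rows, of which 21397 were retained-intron transcripts of protein-coding genes. The other 10442 of those fell under the read minimum. Transcripts of Tardbp were not to be included, and 0 of them had passed the minimum. The members came from 5730 host genes of 15342 protein-coding genes with any transcript past the minimum, and 3014 host genes had 1 member. The read minimum cut through a continuous range: the 301 transcripts that met it in exactly 12 libraries had a median of 6.18 mean reads, and the 325 that met it in 11 had a median of 5.41.

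The libraries were poly-A selected RNA from the frontal cortex of littermate mice from a cross of Grn+/- mice with hTDP transgenic mice. Grn encodes progranulin, a secreted and lysosomal protein, and loss of one copy of its human counterpart causes frontotemporal dementia. The hTDP transgene carries human TARDBP, which encodes the RNA-binding protein TDP-43. Mice with both Grn copies made up the Grn+/+ hTDP- and, with the transgene, the Grn+/+ hTDP+ group; mice with 1 copy made up the Grn+/- hTDP- and Grn+/- hTDP+ groups. Each group held 6 mice, 3 females and 3 males, perfused with saline. The promoter and line of the transgene were not stated in the material analysed, so which cortical cells carried it is unknown. Ages ran from 8.19 to 10.79 months, and they were 9.44 to 10.07 months in both hTDP+ groups; the Grn+/- hTDP- group spanned the whole range. The human TARDBP transcript had 4328 to 8162 reads in the 12 hTDP+ libraries and 0 to 2 reads in the others. Grn was at 52.2 ± 7.73 TPM in Grn+/+ hTDP- (TPM is a level corrected for transcript length and library depth; SD, n = 6) and at 25.9 ± 5.62 in Grn+/- hTDP- (SD, n = 6). Each library is 1 mouse, and the estimated reads ran from 61445842 to 100859149 per library.

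An intron is normally cut out of a transcript before it leaves the nucleus. A retained-intron transcript is an annotated RNA that keeps intron sequence between or beside coding exons; it usually does not encode the full protein. Such RNAs are often held in the nucleus or degraded, and in some genes, among them those of the CLK kinases and the SR splicing factors, spliced and unspliced forms are kept side by side and the balance sets how much protein is made. TDP-43 binds UG-rich stretches of RNA, most of them in introns, and alters splicing of the transcripts it binds. The question of the design here is whether the transgene, the loss of 1 Grn copy, or both together changed the level of these transcripts or their share of the reads of their gene.

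By annotated structure the members fell into 2 main kinds. In 4348 of them (39.7%) an exon spanned at least 1 whole intron of a coding transcript of the same gene, counting introns of 50 bases or more. Another 6583 (60.1%) spanned no such intron but had bases outside every exon of a coding transcript. These are called members that keep part of an intron. Of them, 4042 had a stretch that ran past the end of a coding exon and stopped. A stretch that began outside coding exons and ran into one was found in 3690, with some members having both. Whether each stretch lay inside an intron or beyond the outer exons of the gene was not checked. The other 24 had no base outside coding-transcript exons. The whole introns, counted once each, numbered 5672, with a median of 267 bases, and 98.1% began with GT and ended with AG. At the median, 40.5% of a member's bases lay outside every exon of a coding transcript. The remaining bases are shared with spliced transcripts, and the reads on them were divided between transcripts by Salmon's model, so each level below is an estimate and not a count of reads inside an intron.

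The sequences that follow belong to the members on which the results turn, 5′ to 3′ on the transcript's strand, from the GENCODE M21 transcripts on GRCm38. Lower case marks coding-transcript exon and capitals mark bases kept from an intron. Ppm1a-208 ran past the exon end at chr12:72786770-72786869 (+) into a block of 2611 intron bases, Atp6v0e2-203 did so at chr6:48539252-48539351 (+) into 592 bases, and Srsf5-212 at chr12:80947846-80947945 (+) into an intron of 1229 bases. Clk1-204 kept a whole intron of 87 bases at chr1:58417160-58417286 (-), besides blocks of 387, 871 and 870 bases outside coding exons. Rarres2-202 kept a whole intron of 181 bases at chr6:48570043-48570263 (-) besides 2 others. Snrnp70-216 began inside an intron and ran through the last of 2366 intron bases into an exon at chr7:45380799-45380898 (-).
Ppm1a-208: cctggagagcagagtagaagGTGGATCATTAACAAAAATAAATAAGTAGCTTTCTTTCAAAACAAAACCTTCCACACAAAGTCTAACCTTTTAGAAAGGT
Atp6v0e2-203: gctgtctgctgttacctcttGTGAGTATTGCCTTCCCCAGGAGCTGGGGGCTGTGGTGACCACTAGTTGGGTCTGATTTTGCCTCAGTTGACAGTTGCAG
Srsf5-212: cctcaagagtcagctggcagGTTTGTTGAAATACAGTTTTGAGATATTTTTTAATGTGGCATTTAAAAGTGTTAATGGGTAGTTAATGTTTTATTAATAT
Clk1-204: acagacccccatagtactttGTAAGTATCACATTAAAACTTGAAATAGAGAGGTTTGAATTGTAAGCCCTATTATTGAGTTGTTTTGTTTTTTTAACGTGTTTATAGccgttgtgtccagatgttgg
Rarres2-202: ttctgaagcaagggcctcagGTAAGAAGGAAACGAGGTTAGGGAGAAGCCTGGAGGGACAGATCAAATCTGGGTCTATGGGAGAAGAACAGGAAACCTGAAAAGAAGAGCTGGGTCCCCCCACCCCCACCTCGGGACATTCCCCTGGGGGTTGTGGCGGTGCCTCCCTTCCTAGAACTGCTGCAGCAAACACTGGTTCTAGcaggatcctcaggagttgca
Snrnp70-216: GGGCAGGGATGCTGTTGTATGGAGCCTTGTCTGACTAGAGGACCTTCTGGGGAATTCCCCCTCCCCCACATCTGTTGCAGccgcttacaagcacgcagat
In the first 3 and in Clk1-204 and Rarres2-202 the kept bases open with the donor dinucleotide GT, and in Clk1-204, Rarres2-202 and Snrnp70-216 they close with the acceptor dinucleotide AG.

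Because TDP-43 binds UG repeats, the blocks kept outside coding exons were searched for TGTGTG or GTGTGT, which overlap each other, on the transcript's strand, and for the reverse complement CACACA or ACACAC. Of 14964 blocks of 50 bases or more, 36.3% held the first and 25.5% the second, and the share rose with length. The block of Ppm1a-208 held the motif, as did 90.9% of 773 blocks of like length (0.8 to 1.25 times its own), and also the reverse complement, as did 79.3% of them. The Atp6v0e2-203 block held it, as did 43.6% of 1824 blocks of like length, and also the reverse complement, as did 29.9%. The 660-base block of Sort1-202 held it, as did 46.0% of 1696, and did not hold the reverse complement, which 34.3% did. None of the 3 whole introns of Rarres2-202 held it, and its 1443-base intron held the reverse complement. The longest TG run of each of 3 members is shown in capitals, at chr12:72789298-72789354 (+) for Ppm1a-208, chr6:48539544-48539602 (+) for Atp6v0e2-203 and chr3:108356131-108356186 (+) for Sort1-202.
Ppm1a-208: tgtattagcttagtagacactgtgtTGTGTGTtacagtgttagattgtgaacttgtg
Atp6v0e2-203: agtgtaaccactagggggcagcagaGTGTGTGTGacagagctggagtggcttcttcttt
Sort1-202: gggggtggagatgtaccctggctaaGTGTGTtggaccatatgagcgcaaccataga
The run was 7 bases in Ppm1a-208, 9 in Atp6v0e2-203 and 6 in Sort1-202. A match describes these letters only and is not a measured binding site.

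Most members were rare. Their median level was 0.924 TPM and their median support 30.1 reads per library, and 5745 of them (52.4%) averaged under 1 TPM. The median member held 1.07% of the reads of its gene, 5307 held under 1%, and 1215 (11.1%) held over 10%. Members that kept a whole intron held a median of 1.95% of gene reads and those that kept part of one held 0.762%, at median levels of 0.922 and 0.925 TPM; the first were longer (medians of 2121.5 and 907 bases), and a longer transcript gathers more reads at the same TPM. The spread between mice depended on depth: over the 22 libraries other than the 2 described below, the coefficient of variation of the share had a median of 18.2% in the 2406 members with 100 or more mean reads and 54.3% in the 4178 members with under 20.

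**Figure D1:**
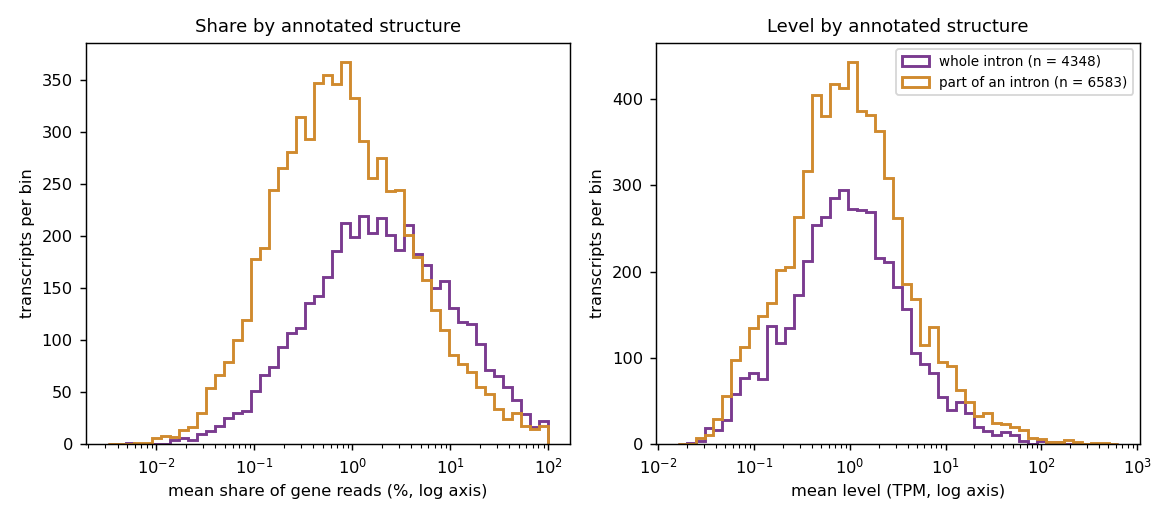
Distribution of the mean share of gene reads (left, percent, log axis) and of the mean level (right, TPM, log axis) over the 24 libraries for members that keep a whole intron and members that keep part of one; each line counts transcripts per bin. The whole-intron class is shifted to higher shares (median 1.95% against 0.762%) while the levels of both classes centre near 1 TPM.

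The members with the highest levels came from abundant housekeeping and signalling genes, and the 12 highest kept 13 to 297 bases outside coding exons. Rps26-202, from a gene for a protein of the small ribosomal subunit, averaged 422.8 TPM and 68.5% of the reads of its gene, with a range of 62.7% to 73.1% over the 24 libraries and no group set apart. Prkcb-208, from the protein kinase C beta gene, averaged 390.1 TPM and 27.1% of gene reads. Its share was 22.3% to 36.6% in 23 libraries and 45.5% in Grn+/- hTDP+ replicate 1. Next came Atp6v1d-202 (258.8 TPM), from a subunit of the vacuolar proton pump, Rps16-203 (253.8 TPM) and Gnb2-213 (205.7 TPM), from a G protein beta subunit. Grcc10-203, Itm2b-202, Ctsb-202, Ghitm-203, Ywhae-204, Ap2m1-204 and Rps20-201 followed at 163.1 to 191.4 TPM. Ctsb encodes the lysosomal protease cathepsin B, and Ctsb-202 held 8.73% of its reads. These bases were 1.83% of the length of Gnb2-213 and 4.72% of that of Grcc10-203, so nearly all of their length is shared with spliced transcripts, and where the reads fell is not in the tables. Ribosomal protein genes have many near-identical copies in the genome, so the split of reads for Rps26, Rps16 and Rps20 is uncertain.

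In 137 members the retained-intron form held over 50% of gene reads, 63 of them in genes with 200 or more mean reads. The highest shares in genes of that depth were in genes with few reads here: Sh2d1a-202 (99.98%), from a lymphocyte signalling adaptor, A2ml1-203 (99.7%), Fam221b-202 (96.4%), Oaz3-203 (96.0%), Dnase1-206 (95.5%) and Slc39a2-202 (93.7%), each from a gene with 206.2 to 301.4 mean reads. Cd6-201, Dcst1-205 and Tuba1c-202 held 81.0%, 79.8% and 79.5% of genes of like depth. Tpi1-204, from the glycolytic enzyme triose phosphate isomerase, held 81.5% of 1612 reads, and since Tpi1 and Tuba1c have near-identical copies elsewhere their reads are uncertain. Daam2-203 and Carmil2-201 stood apart by depth. Daam2, a formin of Wnt signalling, had 4785 mean reads, of which Daam2-203 held 90.3%. Carmil2, a regulator of actin capping, had 4566 mean reads, of which Carmil2-201 held 83.6%, with a range of 80.9% to 88.2% over the 24 libraries. Carmil2-201 kept 8.2% of its length outside coding exons and Daam2-203 kept 59.4%.

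There were 2 libraries that stood apart, and the main results below are given with and without them. The library Grn+/+ hTDP+ replicate 2 listed 4658 of the 10955 members at 0, against 190 to 383 in the other 23. This was not specific to retained introns: 24.8% of 30086 coding transcripts past the minimum were listed at 0 there (2.4% to 4.31% in the others), and 45.9% of 3045 transcripts annotated for nonsense-mediated decay. It touched rare members most, with 69.2% of those under 20 mean reads at 0 and 0.994% of those with 500 or more. The library was among the deepest, at 97736984 reads, so its depth was not low. Whether all libraries were quantified with the same settings was not stated in the material analysed, and the cause of the zeros was not tested. The second, Grn+/- hTDP+ replicate 1, was the shallowest library and had higher shares than usual in most members, as counted below.

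In Grn+/+ hTDP- the members together held 1.82% ± 0.053 (SD, n = 6) of the reads of protein-coding genes, in Grn+/+ hTDP+ 1.94% ± 0.155 (SD, n = 6), in Grn+/- hTDP- 1.89% ± 0.122 (SD, n = 6) and in Grn+/- hTDP+ 2.03% ± 0.37 (SD, n = 6). The ranges were 1.75% to 1.90%, 1.81% to 2.24%, 1.81% to 2.13% and 1.64% to 2.73%, so all 4 groups overlapped. The highest and the lowest library both belonged to Grn+/- hTDP+. Without the 2 libraries that stood apart the hTDP+ means were 1.97% ± 0.158 in Grn+/+ and 1.88% ± 0.145 in Grn+/- (SD, n = 5 each). No test was run on this sum.

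The 3 libraries with the highest sums were Grn+/- hTDP+ replicate 1 (2.73%), Grn+/+ hTDP+ replicate 6 (2.24%) and Grn+/- hTDP- replicate 3 (2.13%), in 3 different groups. Meg3, a long noncoding RNA found mainly in the nucleus, was at 468.9, 387.5 and 340.2 TPM in these 3 and at 194.7 to 276.0 TPM in the other 21. Malat1, another nuclear RNA, was at 161.7, 166.6 and 125.3 TPM in them and at 50.1 to 145.9 TPM in the others. Their part in the member sums was not tested. In Grn+/- hTDP+ replicate 1 the shift was wider among members that keep a whole intron: of those with 100 or more mean reads, 1116 of 1327 (84.1%) lay above their own median share over the 24 libraries, by a median of 0.43 on the log2 scale, against 730 of 1074 (68.0%), by a median of 0.22, among members that keep part of one. In Grn+/- hTDP+ replicate 5, the lowest library, 20.4% of the whole-intron members lay above their median share.

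**Figure D2:**
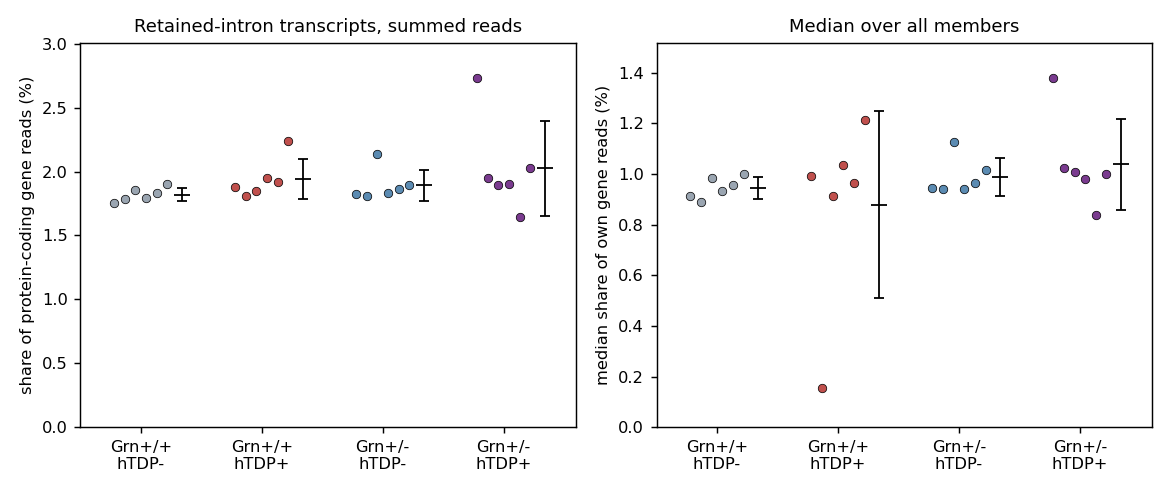
Summed reads of the 10955 members as a percentage of all reads of protein-coding genes (left) and the median member's percentage of its own gene's reads (right), 1 point per library in 4 groups of 6, with mean and SD beside each group. Grn+/- hTDP+ replicate 1 is the highest point in both panels (2.73% and 1.38%), and Grn+/+ hTDP+ replicate 2 is the low point at 0.155% on the right.

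Over the members, the group levels were close. The median over members of the group mean was 0.875 TPM in Grn+/+ hTDP-, 0.924 in Grn+/+ hTDP+, 0.906 in Grn+/- hTDP- and 0.95 in Grn+/- hTDP+, and the median share was 1.02%, 1.06%, 1.05% and 1.12%. Without the 2 libraries that stood apart the hTDP+ values became 0.952 TPM and 1.1% in Grn+/+ and 0.873 TPM and 1.05% in Grn+/-, so the order of the groups changed. Members with a mean share over 10% numbered 1173, 1235, 1197 and 1258 in the same order, and without the 2 libraries 1253 in Grn+/+ hTDP+ and 1194 in Grn+/- hTDP+, the last below Grn+/- hTDP-.

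Genes whose introns are known to be retained as part of their control had some members with high shares, while most of their members were rare like the rest. Of 15 listed kinase and metabolic genes, 13 had 40 members, and 7 members held over 10% of gene reads; the median member held 1.36%, beside 1.07% for all members. Clk1-204, from the kinase that phosphorylates SR proteins, had shares of 26.2%, 30.6% and 31.9% (lowest, median and highest) in Grn+/+ hTDP-, 28.6%, 31.4% and 34.9% in Grn+/+ hTDP+, 28.2%, 30.8% and 34.8% in Grn+/- hTDP-, and 25.9%, 33.1% and 34.5% in Grn+/- hTDP+. The 4 ranges overlapped, and neither group of libraries carrying the transgene lay above the others. Clk4-213, Clk3-203 and Clk2-207, from the other CLK kinases, held 26.1%, 18.3% and 15.8% of gene reads. Ogt-204, from the enzyme that adds O-GlcNAc to proteins, held 6.76% to 10.5% over the 24 libraries, and Nktr-213 and Pan2-204 held 10.5% and 20.1%.

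Of 40 SR and hnRNP genes, 27 had 76 members, with a median share of 0.903%, and 5 of the 76 held over 10%, beside 11.1% of all members. Srsf5-212, whose exon edge is shown above, averaged 38.8 TPM and 29.5% of gene reads; its share was 19.4% to 34.3% in 23 libraries and 43.5% in Grn+/- hTDP+ replicate 1. Srsf6-204, Srsf2-203 and Srsf11-208 held 21.5%, 16.5% and 15.2%. Of 36 spliceosome component genes, 32 had 108 members, with a median share of 0.783% and 14 of them over 10%. Ccnl2-205, from a cyclin of the splicing speckles, held 58.6% of gene reads, and Snrnp70-216, from a protein of the particle that recognises donor sites, held 55.6% at 43.5 TPM. Its shares had medians of 52.9% in Grn+/+ hTDP-, 57.4% in Grn+/+ hTDP+, 54.9% in Grn+/- hTDP- and 57.2% in Grn+/- hTDP+, within an overall range of 46.8% to 64.5%. Rbm5-219 and Luc7l2-203, from 2 further splicing regulators, held 37.3% and 26.4%. Among 15 RNA-binding protein genes of ALS and FTD, 8 had 41 members, 2 of them over 10%. The transcripts of Tia1, a stress granule protein, included Tia1-212 at 16.1%.

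**Figure D3:**
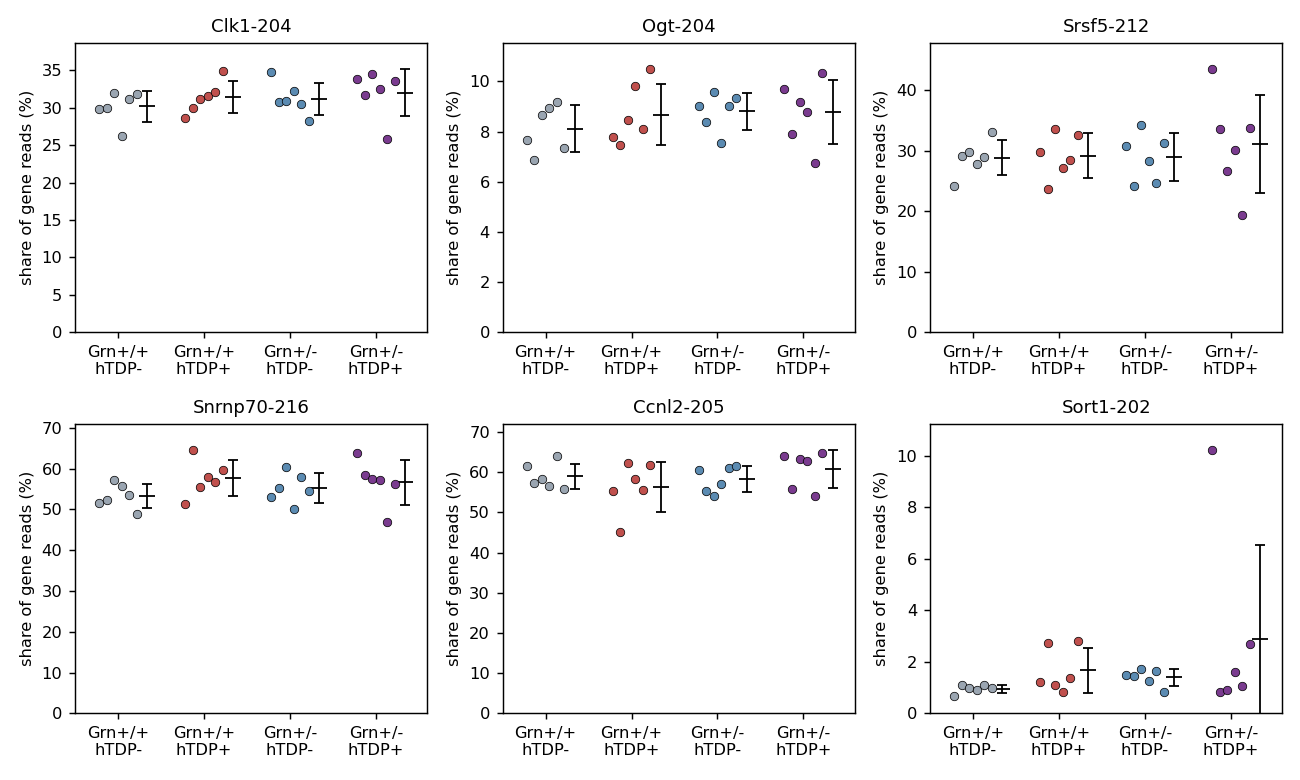
Share of gene reads (percent, linear axis from 0) of 6 members in each library, by group, with mean and SD beside each group of 6. The groups overlap in every panel; Srsf5-212 and Sort1-202 are highest in Grn+/- hTDP+ replicate 1, and the lower SD bar of Sort1-202 in that group runs below 0 and is cut at the axis.

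For the average effect of the transgene, that is the mean of its effects in the Grn+/+ and Grn+/- backgrounds, 1 member was called for level and another for share of gene reads, at an adjusted p below 0.05. The level test was edgeR's quasi-likelihood test over 53677 transcripts, which called 0.041% of them; 1 of 10955 members is 1 call among 22. The share test was limma on the log2 odds of a transcript's reads against the other reads of its gene, over 44551 transcripts, which called 0.0202% of them; 1 of 10920 members tested is 1 call among 9. At an unadjusted p below 0.05, 443 of 10955 members and 2773 of 53677 transcripts passed for level, and 430 of 10920 members and 2602 of 44551 transcripts for share.

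The member called for share was Ppm1a-208. Ppm1a encodes a metal-dependent protein phosphatase that acts on p38 and other stress kinases. Its share of Ppm1a reads was 17.1%, 18.4% and 19.1% (lowest, median and highest) in Grn+/+ hTDP- and 17.2%, 18.1% and 19.1% in Grn+/- hTDP-. It was 21.01%, 21.6% and 25.7% in Grn+/+ hTDP+ and 19.8%, 21.4% and 22.3% in Grn+/- hTDP+. All 12 hTDP+ libraries lay above all 12 hTDP- libraries. The mean rose from 18.2% ± 0.659 to 21.7% ± 1.41 (SD, n = 12 each), a change of 0.32 in log2 odds (SE 0.047, limma adjusted p = 0.0088). The call held in 24 of 24 fits that each left out 1 library, with adjusted p from 0.00278 to 0.0267, and without both libraries that stood apart (0.29, adjusted p = 0.00428). It was lost when each age in the labels was entered as a category (0.30, limma adjusted p = 1), a fit in which only 2 of the 6 Grn+/- hTDP- mice share an age with a mouse of another group.

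The level of Ppm1a-208 itself moved little, from 29.4 ± 1.54 to 31.9 ± 3.02 TPM (SD, n = 12 each), a log2 change of 0.12 (SE 0.033, edgeR adjusted p = 0.648). The share is a share of reads, and the largest part of the gene's reads came from its long coding transcript. Ppm1a-201, a coding transcript of 7668 bases, held 58.7% ± 1.39 of the reads in hTDP- and 49.6% ± 1.85 in hTDP+ libraries (SD, n = 12 each). Ppm1a-203, annotated for nonsense-mediated decay, held 12.9% ± 0.964 and 16.8% ± 1.28 (SD, n = 12 each). Counted as molecules, by TPM, Ppm1a-208 held 13.8% ± 0.61 of the gene in hTDP- and 14.4% ± 1.15 in hTDP+ libraries (SD, n = 12 each), and the change in log2 odds of 0.078 was not called (limma adjusted p = 0.821). The second Ppm1a member, Ppm1a-206, held 0.123% ± 0.035 and 0.152% ± 0.057 (SD, n = 12 each) and was not called. Ppm1a was listed among genes that moved with the transgene in an earlier gene test on these libraries, so the call is not independent evidence on that gene.

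The member called for level was Rarres2-202. Rarres2 encodes chemerin, a secreted protein that attracts immune cells. Its level was 0.347, 0.501 and 0.751 TPM (lowest, median and highest) in Grn+/+ hTDP- and 0.414, 0.485 and 0.613 in Grn+/- hTDP-. It was 0.525, 1.16 and 1.75 TPM in Grn+/+ hTDP+ and 0.741, 0.899 and 1.04 in Grn+/- hTDP+. The hTDP+ and hTDP- ranges overlapped in the Grn+/+ background through 1 hTDP+ library, replicate 6, and not in the Grn+/- background. The mean rose from 0.503 ± 0.114 to 1.05 ± 0.374 TPM (SD, n = 12 each), a log2 change of 1.04 (SE 0.18, edgeR adjusted p = 0.0259), on 70.5 mean reads. Without both libraries that stood apart it was 1.001 (edgeR adjusted p = 0.0207).

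The share of Rarres2 reads in Rarres2-202 was not called, at 32.0% ± 7.33 in hTDP- and 37.7% ± 5.72 in hTDP+ libraries (SD, n = 12 each; log2 odds change 0.37, limma adjusted p = 0.814). The whole gene had 5.19 ± 0.683 TPM in Grn+/+ hTDP- and 11.5 ± 3.96 in Grn+/+ hTDP+, and 7.47 ± 2.6 in Grn+/- hTDP- and 8.37 ± 1.06 in Grn+/- hTDP+ (SD, n = 6 each). Rarres2, too, was listed among genes that moved with the transgene in the earlier gene test. Left out one at a time, 14 of 24 libraries ended the call, with log2 changes of 0.97 to 1.12 and adjusted p of 0.00249 to 0.0656 over the 24 fits. These were Grn+/+ hTDP- replicates 2, 4, 5 and 6, Grn+/+ hTDP+ replicates 1 and 4, Grn+/- hTDP- replicates 1, 2, 3, 5 and 6, and Grn+/- hTDP+ replicates 3, 4 and 5. The call was also lost with no filter on low reads (adjusted p = 0.0573) and under limma-voom (adjusted p = 0.113), and with each age as a category (1.01, edgeR adjusted p = 1).

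Atp6v0e2-203 came next by share. Atp6v0e2 encodes a subunit of the membrane part of the vacuolar proton pump. Its share of gene reads was 0.121%, 0.166% and 0.229% (lowest, median and highest) in Grn+/+ hTDP-, 0.228%, 0.329% and 0.46% in Grn+/+ hTDP+, 0.153%, 0.214% and 0.237% in Grn+/- hTDP- and 0.225%, 0.304% and 0.517% in Grn+/- hTDP+. The hTDP+ libraries lay mostly above the hTDP- libraries with a small overlap. The change was 0.86 in log2 odds (SE 0.16, limma adjusted p = 0.0932) and 0.68 in log2 level (edgeR adjusted p = 0.334), and neither was called; without both libraries that stood apart the share change was 0.75 (limma adjusted p = 0.0765). The whole gene was lower in hTDP+ libraries, at 383.2 ± 11.7 TPM against 452.0 ± 8.18 in Grn+/+ and 378.4 ± 15.04 against 442.8 ± 15.5 in Grn+/- (SD, n = 6 each). Other tests called it, DESeq2 for level (adjusted p = 0.0157) and edgeR diffSpliceDGE for share (adjusted p = 0.00244).

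**Figure D4:**
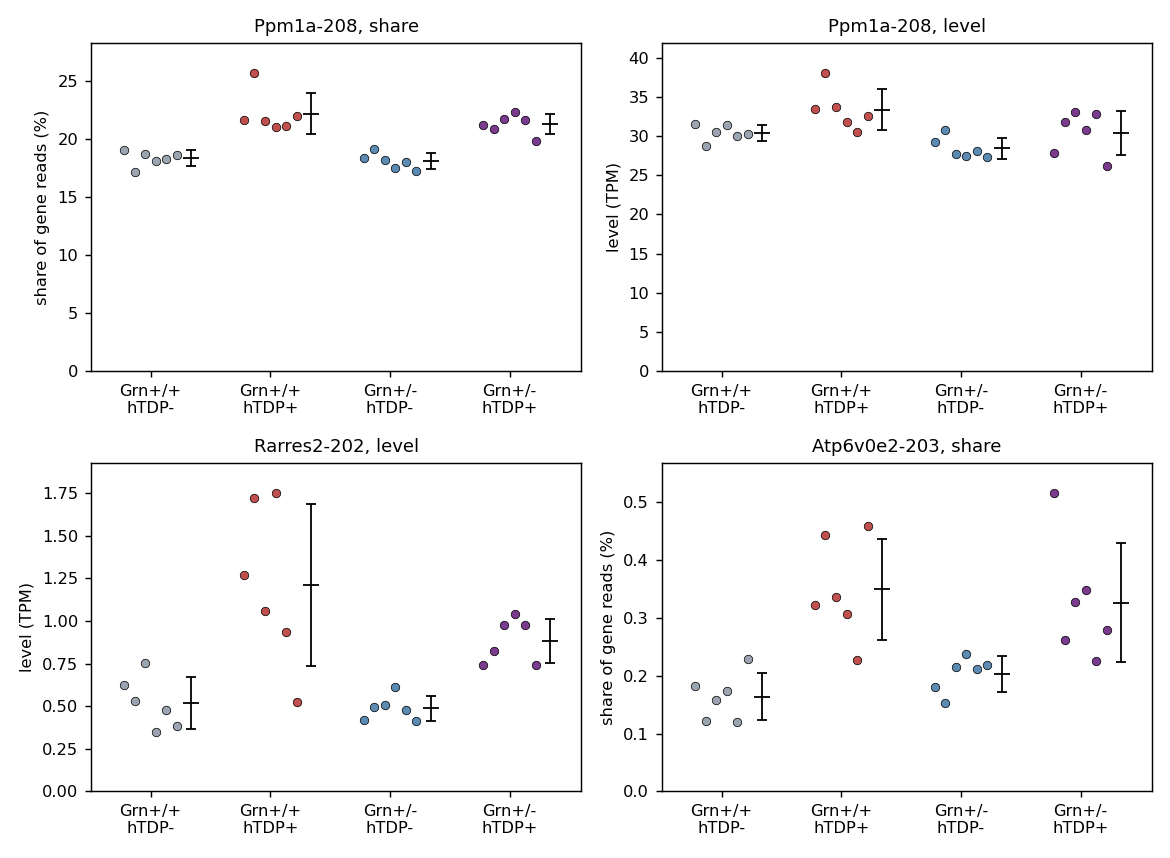
Share of gene reads (percent) and level (TPM) of Ppm1a-208, level of Rarres2-202 and share of Atp6v0e2-203 in each library, by group, with mean and SD beside each group of 6; axes start at 0. The share of Ppm1a-208 separates hTDP+ from hTDP- libraries (19.8% and above against 19.1% and below), its level does not, and the other 2 members overlap.

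Other members near the top of the transgene comparison did not pass the edgeR and limma tests. Timm21-208, from a mitochondrial import subunit, had 1.24 ± 0.114 TPM in hTDP- and 1.73 ± 0.359 in hTDP+ libraries (SD, n = 12 each; log2 change 0.48, edgeR adjusted p = 0.289; 0.46 and 0.342 without both libraries that stood apart). DESeq2 called it, and called Haghl-208, described below, for level in this comparison, and diffSpliceDGE called Haghl-208 for share. Kcnip2-204, from a potassium channel partner that is a listed splicing target of TDP-43, held 7.95% ± 1.28 and 10.5% ± 1.57 of gene reads (SD, n = 12 each; log2 odds change 0.44, limma adjusted p = 0.478; 0.39 and 0.476 without both libraries). Its lowest hTDP+ share was 8.24% and its highest hTDP- share 10.4%, so the ranges overlapped. Taldo1-203, from an enzyme of the pentose phosphate pathway, had a log2 level change of 1.37 on 7.87 mean reads (edgeR adjusted p = 0.6), which was 1.002 (edgeR adjusted p = 0.838) without both libraries.

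Within each Grn background no member was called for the transgene. In Grn+/+ mice the level test called 0.0112% of all transcripts and 0 of 10955 members, and 441 members and 2738 of 53677 transcripts had an unadjusted p below 0.05. DESeq2 called 2 members among 42 transcripts and limma-voom 0 among 5. The share test called 0.00449% of all and 0 of 10920 members, and 550 members and 2802 of 44551 transcripts had an unadjusted p below 0.05. There diffSpliceDGE called 2 members among 11 transcripts and limma's voom diffSplice 51 among 540. In Grn+/- mice the level test called 0.00745% of all and 0 members, with 151 members and 928 transcripts at an unadjusted p below 0.05; DESeq2 called 1 member among 17 and limma-voom 0 among 4. The share test in Grn+/- mice called 0.00673% of all and 0 members, with 177 members and 1080 transcripts at an unadjusted p below 0.05; diffSpliceDGE called 1 member among 7 and voom diffSplice 3 among 38. Ppm1a-208 had a share change of 0.34 in Grn+/+ (limma adjusted p = 0.22) and 0.29 in Grn+/- (limma adjusted p = 0.863), and Rarres2-202 a level change of 1.22 in Grn+/+ (edgeR adjusted p = 0.321) and 0.87 in Grn+/- (edgeR adjusted p = 1). Both changes were smaller in Grn+/- than in Grn+/+. The interaction below called neither, which does not show that the sizes are alike.

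For the loss of 1 Grn copy, averaged over both transgene states, no member was called. The level test called 0.00745% of all transcripts and 0 of 10955 members (edgeR), with 201 members and 1366 transcripts at an unadjusted p below 0.05; DESeq2 called 0 members among 14 transcripts and limma-voom 0 among 4. The share test called 0% of all and 0 of 10920 members (limma), with 301 members and 1414 transcripts at an unadjusted p below 0.05; diffSpliceDGE called 0 members among 1 transcript and voom diffSplice 16 among 126. Grn-206, a transcript of the Grn gene itself that starts inside an intron and keeps 180 intron bases at chr11:102432785-102432964 (+), was among the 5 members of smallest p. Its level was 2.42 ± 0.954 TPM in Grn+/+ and 1.23 ± 0.556 in Grn+/- libraries (SD, n = 12 each), a log2 change of -0.98 (SE 0.29, edgeR adjusted p = 1) that was not called at a mean of 34.1 reads. Its share of Grn reads was 1.22% ± 0.449 and 1.35% ± 0.987 (SD, n = 12 each). The ranges of both measures overlapped between genotypes. Nek8-208, from a kinase of the cilium, had the smallest p for share (log2 odds change 4.03, limma adjusted p = 0.912), on 28.5 mean reads and with 6 of 23 libraries at 0, not counting Grn+/+ hTDP+ replicate 2.

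For the interaction, that is the difference between the transgene effect in Grn+/- and in Grn+/+ mice, no member was called. The level test called 0% of all transcripts and 0 members (edgeR), with 168 members and 996 transcripts at an unadjusted p below 0.05; DESeq2 called 1 member among 2 transcripts and limma-voom 0 of 0. The share test called 0% of all and 0 members (limma), with 237 members and 1181 transcripts at an unadjusted p below 0.05; diffSpliceDGE called 1 member among 3 transcripts and voom diffSplice 7 among 58. The member called by DESeq2 and by diffSpliceDGE was Haghl-208, which was also among the 7 of voom diffSplice. Haghl-208 comes from a gene related to glyoxalase II and keeps 2 whole introns of 81 and 86 bases. It had 36.5, 49.3 and 76.3 reads (lowest, median and highest) in Grn+/+ hTDP- and was listed at 0 in all 6 Grn+/+ hTDP+ libraries. It was listed at 0 in 3 of 6 Grn+/- hTDP- libraries and 1 of 6 Grn+/- hTDP+ libraries, with up to 70.2 and 83.6 reads in the rest. The gene as a whole had 109.1 ± 3.84, 108.3 ± 7.84 TPM without and with the transgene in Grn+/+, and 107.8 ± 6.23 and 110.2 ± 9.66 TPM in Grn+/- (SD, n = 6 each). Its log2 share change was 8.65 for the interaction (SE 1.8, limma adjusted p = 0.962), and a size of that order depends on the prior count added to zeros.

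Such switching between 0 and many reads was common. Of the 10955 members, 2286 were listed at 0 in at least 1 of the 23 libraries other than Grn+/+ hTDP+ replicate 2, some of them with 100 or more mean reads. Some follow sex: Kdm5d-205 and Eif2s3y-205, from genes of the Y chromosome, were at 0 in the females. Wdr77-202, from a subunit of the methylosome, was listed at 0 in 5 of 6 Grn+/- hTDP+ libraries and in Grn+/+ hTDP+ replicate 6, and had 102 to 387 reads in the other 18. Its share change with the transgene on average, -4.12 in log2 odds, was not called (SE 0.97, limma adjusted p = 0.406); without Grn+/- hTDP+ replicate 2, the one library of its group with reads, the adjusted p was 0.0223. The whole gene had 33.9 ± 1.82 TPM in Grn+/+ hTDP-, 33.2 ± 3.3 in Grn+/+ hTDP+, 32.3 ± 1.02 in Grn+/- hTDP- and 28.0 ± 1.28 in Grn+/- hTDP+ (SD, n = 6 each).

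None of the 40 members of the kinase and metabolic list, 76 of the SR and hnRNP list, 108 of the spliceosome list, 41 of the ALS and FTD list, 42 of the TDP-43 target list, 45 of the synaptic list or 18 of the lysosomal list was called for level or share in any of the 5 comparisons. Of the 4 members of the p38 list, Ppm1a-208 was called. Of the 16 members of genes that moved with the transgene in the earlier gene test, a list chosen on these samples, Ppm1a-208 and Rarres2-202 were called. In the average transgene comparison the median log2 level change was 0.13 for the SR and hnRNP list (55 of 76 members above 0), 0.085 for the spliceosome list (78 of 108), 0.13 for the ALS and FTD list (30 of 41), 0.049 for the kinase and metabolic list (23 of 40), -0.01 for the synaptic list (20 of 45) and -0.0051 for the TDP-43 target list (21 of 42), beside 0.062 for all members (6600 of 10955) and -0.0083 for all 53677 transcripts. Without the 2 libraries that stood apart these medians were 0.089, 0.095, 0.092, 0.046, -0.0098 and 0.0073, beside 0.049 for all members. The median share changes, in log2 odds, were 0.046 for the SR and hnRNP list, -0.023 for the spliceosome list, -0.044 for the ALS and FTD list, -0.17 for the kinase and metabolic list, -0.016 for the synaptic list and -0.13 for the TDP-43 target list, beside -0.054 for all members and -0.062 for all 44551 transcripts. For the spliceosome, ALS and FTD, and kinase and metabolic lists the sign is thus the opposite of that for level, as it is for all members. Without the 2 libraries the share medians were 0.041, 0.05, 0.033, 0.0033, 0.053 and 0.055, beside 0.041 for all members and 0.0017 for all transcripts.

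Within the TDP-43 targets, Sort1-202 was set apart by 1 library. Sort1 encodes sortilin, a receptor that takes up progranulin. Its share of Sort1 reads had medians of 0.984% in Grn+/+ hTDP-, 1.29% in Grn+/+ hTDP+, 1.47% in Grn+/- hTDP- and 1.34% in Grn+/- hTDP+. It ran from 0.661% to 2.79% in 23 libraries and reached 10.2%, on 3761 reads, in Grn+/- hTDP+ replicate 1. Next were Grn+/+ hTDP+ replicates 6 and 2 and Grn+/- hTDP+ replicate 6, at 2.79%, 2.72% and 2.70%. The remaining hTDP+ libraries, at 0.814% to 1.62%, lay within the hTDP- range of 0.661% to 1.73%. The share change of Sort1-202 with the transgene was 0.56 in log2 odds (limma adjusted p = 0.815), and 0.21 (limma adjusted p = 0.902) without both libraries that stood apart. Of the 2406 members with 100 or more mean reads, 901 had their highest share of the 24 libraries in Grn+/- hTDP+ replicate 1. Examples among them, at 0 in no library and chosen after their values were seen, were Man2a2-202 at 24.1% against 0.714% to 11.7% in the other 23 libraries, Slc12a5-205, from the neuronal chloride exporter, at 15.8% against 1.24% to 11.2%, and Pi4ka-206 at 5.31% against 0.27% to 4.27%.

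Across all members, the median change in each comparison depended on the 2 libraries. For level, the median log2 change with the transgene on average was 0.062 and became 0.049 without them. With Grn loss it was 0.075 and became -0.0049; for the interaction it was 0.045 and became -0.13; with the transgene it was 0.038 and became 0.12 in Grn+/+, and 0.085 and became -0.016 in Grn+/-. For share, the medians were -0.054, 0.15, 0.19, -0.14 and 0.052 in the same order of comparisons and became 0.041, -0.01, -0.13, 0.11 and -0.023 without them. For the members, the sign turned in 3 of the 5 comparisons for level and in all 5 for share. The medians of all transcripts tested shifted too. For level they were -0.0083, 0.02, 0.029, -0.026 and 0.0038 in the same order and became 0.0036, 0.0032, -0.0076, 0.0079 and -0.0038. For share they were -0.062, 0.055, 0.082, -0.099 and -0.0028 and became 0.0017, -0.0025, -0.023, 0.012 and -0.009. The members' level medians with the transgene on average and in Grn+/+ were positive with and without the 2 libraries, but under limma-voom with all 24 libraries they were -0.068 and -0.18.

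**Figure D5:**
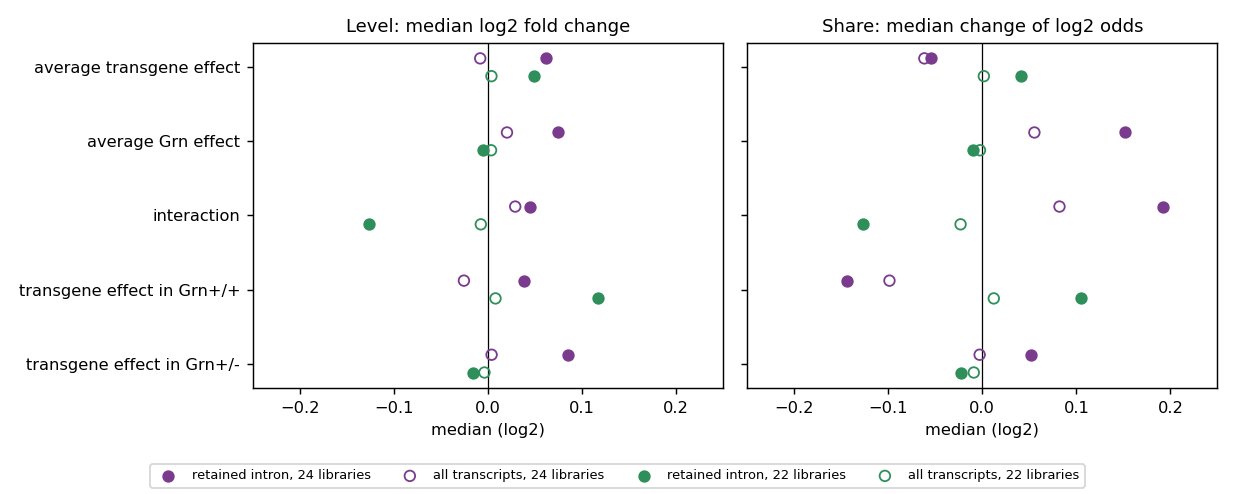
Median log2 change of the members (filled) and of all transcripts tested (open) in the 5 comparisons, for level (left) and share of gene reads (right), with all 24 libraries and with 22, leaving out Grn+/+ hTDP+ replicate 2 and Grn+/- hTDP+ replicate 1. The filled points change side between the 2 sets of libraries in 3 of 5 comparisons on the left and in 5 of 5 on the right.

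Markers of cortical cells were present in every library. The summed level of 5 markers of cortical excitatory neurons ran from 2483 to 3113 TPM, and that of 6 oligodendrocyte markers from 758.1 to 3894 TPM, the widest range of the abundant types. Its medians were 1279 TPM in Grn+/+ hTDP-, 1891 in Grn+/+ hTDP+, 1191 in Grn+/- hTDP- and 1505 in Grn+/- hTDP+. The ranges overlapped, at 802.0 to 2072, 1356 to 2845, 868.9 to 3894 and 758.1 to 2164 TPM in that order. Blood markers had medians of 69.4, 75.6, 62.3 and 216 TPM in the same order. Their ranges overlapped too, at 35.0 to 113.5, 64.6 to 182.5, 36.3 to 520.9 and 45.4 to 271.4 TPM. Choroid plexus and ependyma markers summed to 3.25 to 24.1 TPM, with Folr1 under 1 TPM; their highest sum was in Grn+/+ hTDP+ replicate 2, and their medians were 4.96 TPM in Grn+/+ hTDP-, 6.2 in Grn+/+ hTDP+, 4.31 in Grn+/- hTDP- and 4.89 in Grn+/- hTDP+. The part of these markers in the levels and shares of the members was not tested. In tissue, fewer cells of a type and less RNA per cell cannot be told apart.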

How the data were processed

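Salmon tables of 24 libraries were deposited by the authors with estimated counts (reads per transcript, not normalized) and TPM per transcript. STAR, SAMtools, Salmon and DESeq2 are named, without versions, in the submitters' processing notes; the build and annotation were not stated in the material analysed. Strand is unclear: both a directional and a non-directional preparation are described, per the labels' protocols. Transcript types and coordinates were taken from GENCODE M21 (GRCm38) by transcript ID without version; 138032 of 149444 rows matched, and the annotated length equalled that in the file for 99.9% of members.

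Estimated counts were rounded, and transcripts with 5 or more reads in at least 12 libraries kept. Level was tested with edgeR 4.0.16 (TMM, quasi-likelihood, robust) and share with limma 3.58.1 on log2 odds (prior 0.5 reads), each with 1 term per genotype group and sex, Benjamini-Hochberg adjustment over all transcripts tested, two-sided, threshold 0.05; the share test needed 5 or more other reads of the gene in 12 libraries. R was 4.3.3 and DESeq2 1.42.0. The tests were tested on simulated data. Members named were those called, or else the 5 of smallest p, in each comparison and measure; the 12 of highest TPM; the 12 of highest share in genes of 200 or more mean reads; and members of 9 gene lists. A block is a stretch outside all coding-transcript exons. Replicates are separate mice, numbered 1 to 6 in each group by order only. The members and lists were chosen with earlier results of these data known. Alternatives tried were another scaling, filters, tools, priors, no sex term, age as a number or a category, and leaving out each library or the 2 that stood apart.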

Additional observations from a re-analysis of the deposited data

Results flagged for a closer look

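Libraries far from the other 5 of their group were sought by the gap to the nearest, as a part of the group's range, which by chance flags about 1 group in 20. For the summed share of protein-coding gene reads, 3 libraries lay high: Grn+/+ hTDP+ replicate 6 at 2.24% (others 1.81% to 1.95%), Grn+/- hTDP- replicate 3 at 2.13% (1.81% to 1.89%) and Grn+/- hTDP+ replicate 1 at 2.73% (1.64% to 2.03%). By TPM, Grn+/- hTDP- replicate 3 was at 4.07% (3.603% to 3.75%) and Grn+/- hTDP+ replicate 1 at 4.70% (3.43% to 3.79%). The median member share was 0.155% in Grn+/+ hTDP+ replicate 2 (0.915% to 1.21%) and 1.38% in Grn+/- hTDP+ replicate 1 (0.84% to 1.02%). Grn+/+ hTDP+ replicate 2 listed 6297 members above 0 (10572 to 10762). It was also the highest of its group for the Ppm1a-208 share, at 25.7% (21.01% to 21.9%). Wdr77-202 was at 4.38 TPM and 4.02% of gene reads in Grn+/- hTDP+ replicate 2, with the other 5 libraries listed at 0. No cause was tested for any of these.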

How the results depend on the processing

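The share call of Ppm1a-208 held in each of the 24 fits without 1 library (0.29 to 0.33 in log2 odds) and in 8 of 10 other settings, among them leaving out both libraries that stood apart, which was chosen after seeing the data (0.29, adjusted p = 0.00428); it was lost with log odds from TPM (0.078) and with each age as a category, also chosen after seeing the data (0.30, adjusted p = 1). With age as a category 0 members were called for level and 0 for share with the transgene on average, and the Rarres2-202 level change was 1.01 (adjusted p = 1); only 2 Grn+/- hTDP- mice share an age with another group. For level, the members called with the transgene on average numbered 1, and 4 by DESeq2 among 91 transcripts, 0 by limma-voom among 29, 0 with no filter and 0 to 2 without 1 library. DESeq2 called 1 for the interaction, 2 in Grn+/+ and 1 in Grn+/-. Without 1 library, 0 to 1 were called with Grn loss and in Grn+/-; the 1 was Wdr77-202, without Grn+/- hTDP+ replicate 2. For share with the transgene on average, 1 was called, 0 with TPM and 1 to 2 without 1 library. Of 10910 members, diffSpliceDGE called 3 and voom diffSplice 28, beside 20 and 365 of all 44178 transcripts. diffSpliceDGE called 1 for the interaction, 2 in Grn+/+ and 1 in Grn+/-, and voom diffSplice 16 with Grn loss, 7 for the interaction, 51 in Grn+/+ and 3 in Grn+/-. In Grn+/-, 0 to 1 were called for share without 1 library, again Wdr77-202, without Grn+/- hTDP+ replicate 2 or Grn+/+ hTDP+ replicate 6. The cause of these differences between tools was not tested. By TPM, which weights short transcripts more, the summed shares were 3.68% and 3.81% without and with the transgene in Grn+/+, and 3.73% and 3.86% in Grn+/-, and without the 2 libraries 3.85% and 3.69% in the hTDP+ groups, the last below Grn+/- hTDP-. Dropping the read minimum, which was done for the sums of reads only, left those group means within 1 SD. No paired analysis was possible because the replicate numbers were given by order only and the labels name no litter. In simulated data for the average transgene comparison the level test over 53677 transcripts recovered 53 of 100 changes of log2 1 and 83 of 100 of log2 2, with 5 false calls, and the share test over 42832 recovered 46.2% of 91 and 79.6% of 93, with 11 false calls. The changes were planted only in transcripts with 20 or more mean reads, so recovery was not measured for the 4178 members with under 20. False calls for share were counted only in genes with no changed transcript. The read division between overlapping transcripts adds error that these tests do not see.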
